A study of Mus musculus with 47 samples.

Results

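The genes described here are the nuclear protein-coding genes of the mitochondrial respiratory chain whose symbols begin with Ndufa, Ndufb, Ndufc, Ndufs, Ndufv, Uqcr, Cox4, Cox5, Cox6, Cox7, Cox8 or Atp5. They numbered 92 of the 21887 protein-coding genes on chromosomes 1 to 19, X and Y. By role they were 39 subunit genes of complex I, 8 assembly factors of complex I (Ndufaf genes), 8 genes of complex III, 20 of complex IV and 17 of ATP synthase. Cox7a2l was counted with complex IV by its symbol, though it is not a subunit. A gene was counted as having a peak when a peak lay within 2 kb of either end of its annotated span. The main comparison used the 80 respiratory chain genes with an H3K4me3 peak there in untreated control cells, set beside all 13873 genes with that peak, called the reference genes below.

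The respiratory chain passes electrons from NADH and succinate to oxygen through complexes in the inner mitochondrial membrane, and ATP synthase uses the proton gradient so formed. Most subunits are encoded in the nucleus, the rest in mitochondrial DNA, and the nuclear genes are active in nearly every cell type. Their promoters are known for sites of the transcription factors NRF1, GABPA (an ETS factor) and YY1.

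Chromatin immunoprecipitation with sequencing (ChIP-seq) was performed in NMuMG cells, a mouse mammary gland epithelial line in which TGFβ1 induces an epithelial to mesenchymal transition. The groups were control cells and Pbrm1 knockout (KO) cells, untreated (0 h) or given 5 ng/ml TGFβ1 for 24 or 48 h. PBRM1 and PHF10 belong to PBAF, one of the SWI/SNF chromatin remodelling complexes, whose ATPase is BRG1, and ATF3, FOSL2 and FOSB are bZIP transcription factors. The 5 histone marks (H3K4me3, H3K4me1, H3K27ac, H3K14ac and H3K18ac) were profiled in control cells at 0 and 48 h, BRG1 in control cells at 0 h, PHF10 in control cells at 0, 24 and 48 h and in KO cells at 0 and 48 h, ATF3 in both genotypes at 0, 24 and 48 h, and FOSL2 and FOSB in both genotypes at 0 and 48 h. Chromatin for PHF10, BRG1 and ATF3 was fixed in 2 steps, first by disuccinimidyl glutarate and next by formaldehyde, whereas the other antibodies used formaldehyde fixation only.

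Of 47 samples, 32 had a peak list and 15 were inputs. Only PHF10 in control cells was replicated, with 2 libraries each at 0 and 48 h. Every other group had 1, so its comparisons had no replicate check and no test. Lists held from 2 to 158815 peaks and the read depth of each library is unknown, so a longer list marks more genes of every kind, and each count below is read against the reference genes of the same list. Peak lists give no check of the knockout. All 10 epithelial markers examined, among them Cdh1, Epcam and Krt8, had an H3K4me3 peak at 0 h, as did 10 of 18 markers of other cell types, so presence of this mark alone did not separate the types. Intervals are exact 95% Clopper-Pearson intervals and cover counting error only. The fold of a peak is the authors' enrichment of ChIP over input. It ranks genes within a list, and only for genes gaining PHF10 at 48 h is it a mean over 2 lists.

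Promoter sequences of 6 genes are shown because they hold the motifs counted below and because their peaks span the range described below. Atp5h, Cox6a1 and Ndufa11 had PHF10 at 0 h in both control replicates, Uqcrfs1 had the highest H3K4me3 fold, Uqcr11 lacked PHF10 at 0 h and ATF3 at 48 h in control cells, and Ndufaf8 holds a YY1 core. They were chosen after their values were seen. The sequences are from RefSeq (GRCm38.p6, the assembly that mm10 names), run 5′ to 3′ along the gene from 250 bases before to 50 after the annotated start, and lie at chr11:115419870-115420169 (- strand), chr5:115348909-115349208 (- strand), chr17:56717512-56717811 (+ strand), chr13:30545267-30545566 (- strand), chr10:80406772-80407071 (- strand) and chr11:120098684-120098983 (+ strand). Capitals mark the NRF1 core GCGCATGC, the ETS core CCGGAAG, the YY1 core AAGATGGC and the cAMP response element (CRE) TGACGTCA, each on either strand, and overlapping matches run together.
Atp5h: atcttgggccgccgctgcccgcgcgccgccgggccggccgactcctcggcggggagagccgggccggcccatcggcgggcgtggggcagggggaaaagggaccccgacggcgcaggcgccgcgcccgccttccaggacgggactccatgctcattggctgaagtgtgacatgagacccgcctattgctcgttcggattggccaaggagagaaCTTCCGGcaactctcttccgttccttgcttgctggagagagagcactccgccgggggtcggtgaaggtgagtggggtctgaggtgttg
Cox6a1: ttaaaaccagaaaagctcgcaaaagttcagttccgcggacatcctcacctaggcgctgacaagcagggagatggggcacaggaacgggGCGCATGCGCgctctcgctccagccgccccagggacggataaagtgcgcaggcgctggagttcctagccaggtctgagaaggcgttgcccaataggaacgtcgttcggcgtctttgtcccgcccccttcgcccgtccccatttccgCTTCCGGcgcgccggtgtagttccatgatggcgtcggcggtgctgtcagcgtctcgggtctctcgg
Ndufa11: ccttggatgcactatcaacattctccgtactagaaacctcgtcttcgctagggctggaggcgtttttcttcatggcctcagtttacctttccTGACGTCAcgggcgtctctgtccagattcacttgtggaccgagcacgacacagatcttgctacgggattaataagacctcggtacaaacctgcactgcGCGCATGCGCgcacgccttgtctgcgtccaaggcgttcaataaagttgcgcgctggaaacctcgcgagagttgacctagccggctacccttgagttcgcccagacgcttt
Uqcrfs1: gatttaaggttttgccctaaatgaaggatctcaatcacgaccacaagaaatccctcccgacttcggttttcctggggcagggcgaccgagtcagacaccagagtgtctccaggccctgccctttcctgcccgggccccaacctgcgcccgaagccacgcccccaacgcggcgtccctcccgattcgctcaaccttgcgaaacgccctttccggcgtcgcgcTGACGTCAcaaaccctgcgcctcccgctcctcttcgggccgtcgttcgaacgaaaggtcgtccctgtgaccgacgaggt
Uqcr11: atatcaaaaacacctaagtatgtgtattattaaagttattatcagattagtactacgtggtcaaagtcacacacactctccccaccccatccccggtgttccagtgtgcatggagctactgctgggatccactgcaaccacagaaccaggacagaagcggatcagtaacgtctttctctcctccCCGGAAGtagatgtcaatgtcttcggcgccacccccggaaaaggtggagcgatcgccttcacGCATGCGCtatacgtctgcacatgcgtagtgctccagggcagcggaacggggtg
Ndufaf8: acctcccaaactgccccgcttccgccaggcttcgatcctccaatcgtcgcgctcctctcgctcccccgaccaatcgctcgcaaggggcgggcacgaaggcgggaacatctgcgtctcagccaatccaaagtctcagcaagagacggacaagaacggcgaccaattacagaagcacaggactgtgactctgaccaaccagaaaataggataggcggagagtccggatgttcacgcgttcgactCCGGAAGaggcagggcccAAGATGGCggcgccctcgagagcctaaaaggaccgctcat

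Of the 80 genes, 65 matched the promoter table, as did 11039 reference genes, and 17492 protein-coding genes in all. The NRF1 core was found in 11 of 65 respiratory chain promoters (16.9%), in 5.66% of reference promoters and in 3.94% of all promoters. The YY1 core was found in 10 (15.4%), against 4.67% of reference and 3.57% of all promoters, and the ETS core in 17 (26.2%), against 18% and 12.9%. At least 1 of these 3 was present in 32 promoters (49.2%) and in 25.7% of reference promoters. The GC box of SP1 factors (GGGCGG) went the other way, with 29 promoters (44.6%) against 69.0% of reference and 49.2% of all promoters. The AP-1 site TGANTCA was found in 5 (7.69%, against 5.72% and 8.12%) and the CRE in 4 (6.15%, against 3.39% and 2.54%). The 4 with a CRE were Ndufa10, Ndufa11, Ndufb2 and Uqcrfs1. Both strands were searched, no motif holds the letters of another, and the CRE and the AP-1 site read the same on both strands. A match is a description of the letters and not a binding site. Median GC content was 59.0% in respiratory chain promoters and 61.7% in reference promoters, and the median ratio of observed to expected CpG was 0.851 and 0.758.

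At 0 h, H3K4me3, the mark of active promoters, covered shorter stretches at respiratory chain genes than at other marked genes while its fold was not lower. The summed length of H3K4me3 peaks at a gene had a median of 732 bp (lowest 247, highest 3800) in the 80 genes and of 971 bp in the reference genes. The median fold was 47.2 (lowest 4.43, highest 110) against 40.1. The highest folds were those of Uqcrfs1 (110), the Rieske iron-sulfur protein of complex III, Atp5j (93), coupling factor 6 of ATP synthase, Ndufaf6 (91.1), a complex I assembly factor, Cox4i1 (90.9), the ubiquitous subunit IV of complex IV, and Ndufb4 (87.7), an accessory subunit of complex I. The longest coverage was at Atp5d (3800 bp), the δ subunit of ATP synthase, Ndufa11 (2756 bp), an accessory subunit of complex I, and Ndufv2 (2515 bp), an iron-sulfur subunit of complex I. This length covers both gene ends, and the strongest peak of Ndufv2 lay 24606 bp downstream of its start, near the other end. At Atp5d the centre of the strongest peak lay at -3419 bp from the nearest annotated start. Peaks sat just inside the start: the centre of the strongest H3K4me3 peak lay at a median of 138 bp downstream of the nearest annotated start, and within 500 bp of it in 59 of 65 genes (90.8%), against 77.3% of reference genes. The gene spans were also short, with a median of 7228 bp against 22321 bp, and 54 of the 80 genes (67.5%) had an end within 2 kb of another protein-coding gene, against 46.1% of reference genes. Peaks at those ends can belong to the neighbour. Atp5j is an example, since it shares its H3K4me3 peak with Gabpa, which encodes the ETS factor itself, and both genes have the same folds for H3K4me3 (93) and H3K27ac (263) at 0 h.

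**Figure D1:**
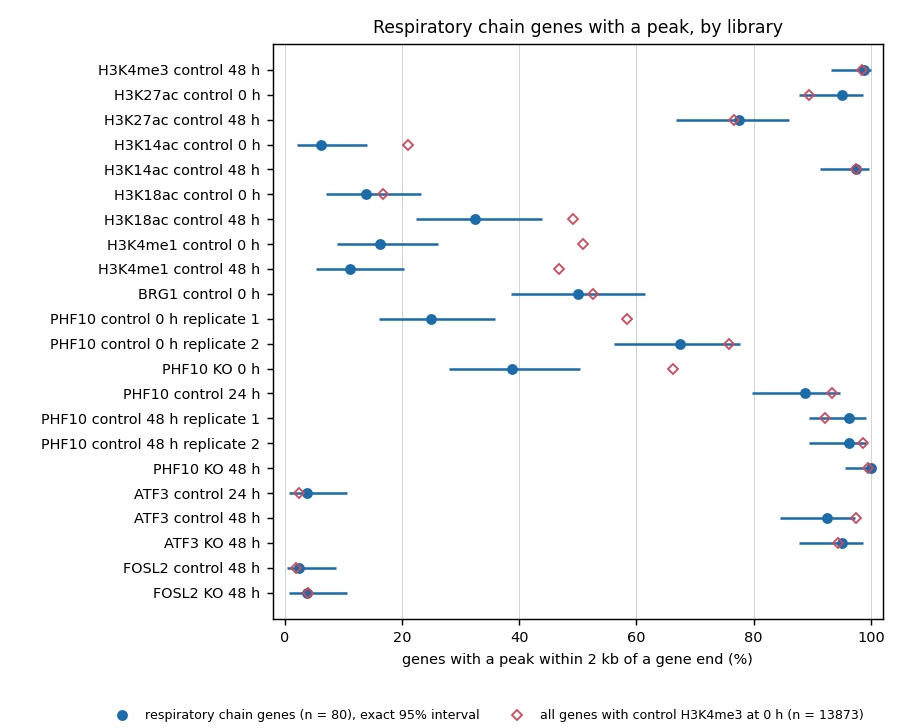
Share of genes with a peak within 2 kb of a gene end (horizontal axis, percent) in 22 peak lists (vertical axis). Filled points with bars are the 80 respiratory chain genes with their exact 95% intervals, and open diamonds are the 13873 reference genes. The diamonds lie right of the bars for H3K4me1 at both times, H3K14ac at 0 h, H3K18ac at 48 h, PHF10 control 0 h replicate 1 and PHF10 KO 0 h, and just beyond the bar for ATF3 control 48 h.

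Of the 12 genes without an H3K4me3 peak at a gene end at 0 h, 8 belonged to complex IV, 3 to complex I and 1 to ATP synthase. Cox6b2, Cox7a1, Cox7b2, Cox8b and Cox8c are isoforms known for expression in muscle, testis or brown fat. Ndufb4b and Ndufb4c are copies related to Ndufb4. In 2 of the others the gene span, not the chromatin, set the count: Cox5a had an H3K4me3 peak of 62.2-fold with its centre 230 bp downstream of the annotated start, and Cox7a2 one of 6.78-fold at 132 bp, and both lay over 2 kb inside the annotated span. For Cox7b the nearest peak lay 3764 bp outside the span, for Ndufa9 the peak nearest the start lay 3104 bp downstream of it, and for Atp5g1 it lay 10569 bp away. Atp5g1, which encodes subunit c of ATP synthase, nevertheless had an H3K27ac peak at its start at 0 h (7.76-fold) and an H3K4me3 peak there at 48 h (6.76-fold). Ndufa9 likewise had H3K27ac at the start at 0 h (5.23-fold) and H3K4me3 at 48 h (3.91-fold).

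None of the tissue-restricted isoforms had an acetylation peak in control cells at 0 h. These isoforms numbered 8 (the 5 above with Cox4i2, Cox6a2 and Ndufa4l2), and 3 had H3K4me3 at 0 h, namely Cox4i2 (6.69-fold), Cox6a2 (5.15-fold) and Ndufa4l2 (8.63-fold). Cox4i2 is the lung isoform of subunit IV and Ndufa4l2 a hypoxia-induced paralogue of Ndufa4. H3K27ac was at none of the 8 at 0 or 48 h, against 78 and 62 of the other 84 members. H3K14ac and H3K18ac at 0 h were at only 5 and 11 of the other 84, so their absence from the 8 says little. At 48 h H3K14ac was at 4 of the 8 (Cox4i2, Cox6b2, Cox8c and Ndufa4l2), against 77 of the other 84. H3K18ac at 48 h was at none of the 8, against 26. Cox4i2 and Ndufa4l2 each had an H3K4me1 peak at 0 h (3.79-fold and 3.91-fold) and none at 48 h. Cox6a2, the muscle isoform of subunit VIa, was the only one of the 80 genes with an H3K4me3 peak at 0 h and none at 48 h.

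**Figure D2:**
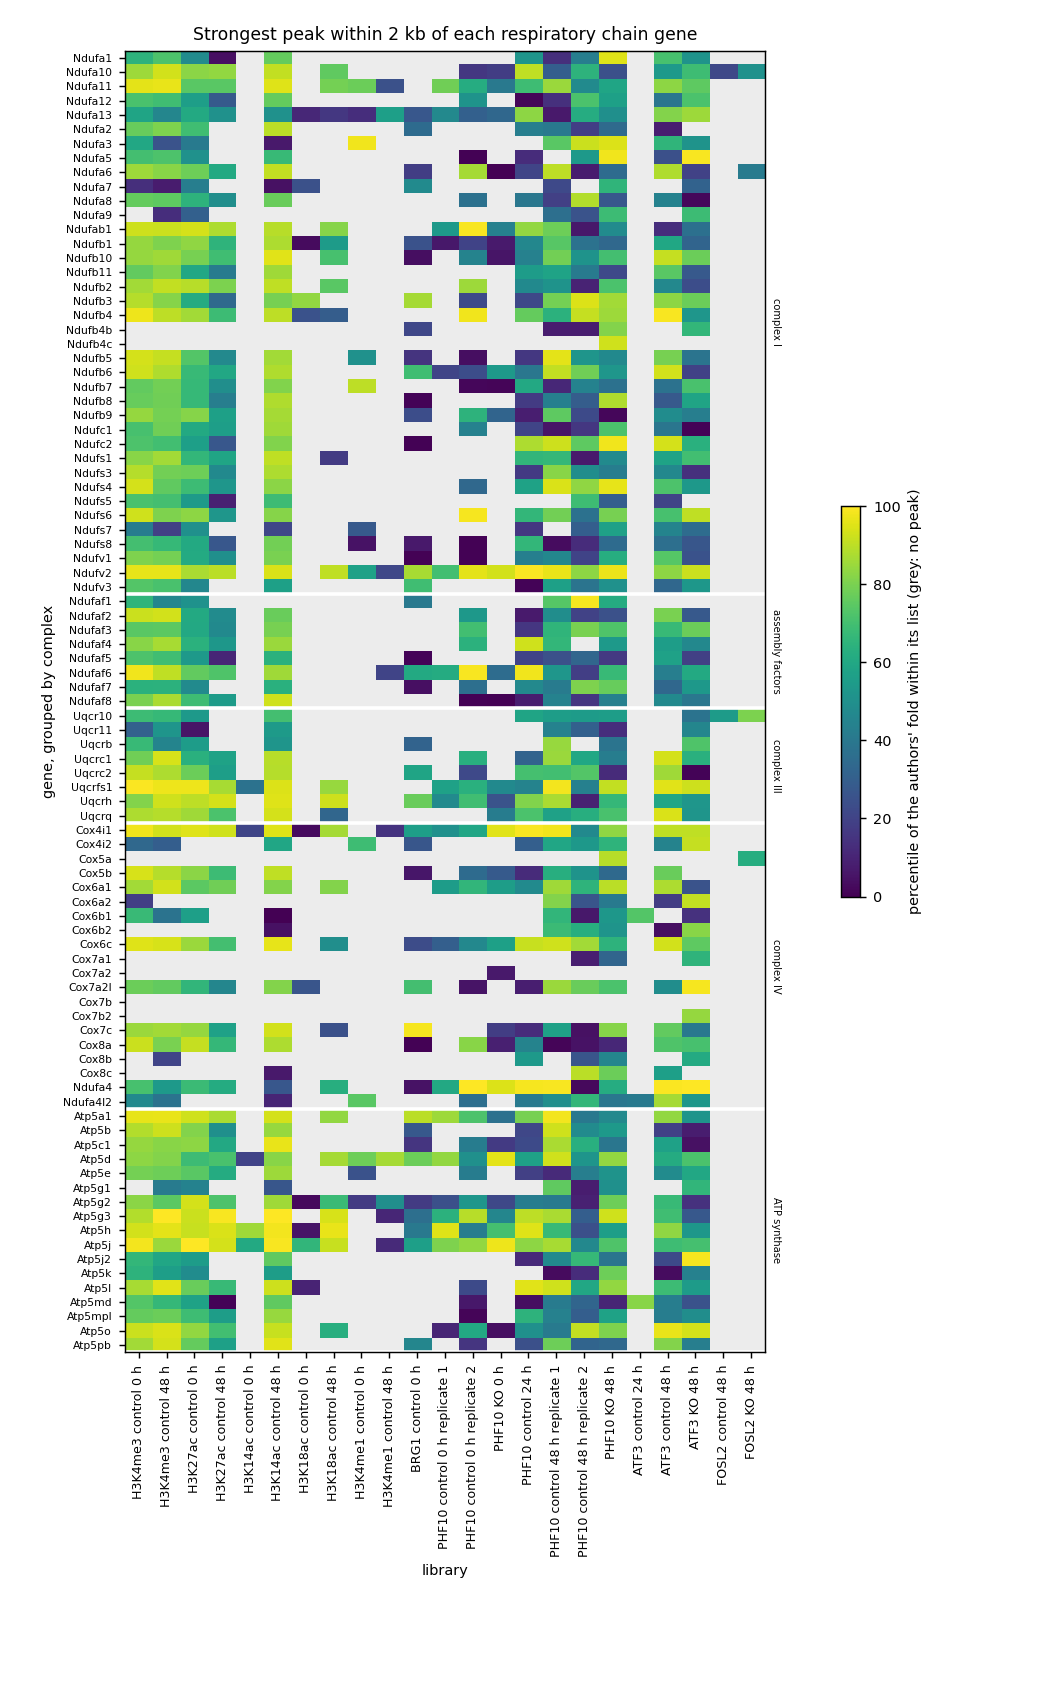
Each row is a respiratory chain gene, grouped by complex (1 gene is not shown), and each column a peak list. Colour gives the percentile of the authors' fold of the gene's strongest peak among all peaks of that list (0 to 100), and grey means no peak within 2 kb of a gene end. H3K4me3, H3K27ac at 0 h, H3K14ac at 48 h, ATF3 at 48 h and PHF10 at 48 h fill nearly all rows, whereas H3K4me1, H3K14ac at 0 h and PHF10 control 0 h replicate 1 leave most rows grey.

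H3K4me3 persisted through TGFβ1 treatment. At 48 h 79 of the 80 genes (98.8%) had the peak, close to the 98.4% of reference genes, and 1 gene had it at 0 h and not at 48 h, against 1.56%. Among the 80 genes none could gain it, since the choice of genes required it at 0 h (0 of the reference genes, 0%). The highest folds at 48 h were those of Atp5g3 (89.0), a gene for subunit c, Uqcrfs1 (71.2), Atp5a1 (67.5), the α subunit of ATP synthase, Ndufa11 (66.9) and Ndufv2 (66.5). The Ndufv2 peak lay 24619 bp downstream of the start, near the other gene end.

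H3K4me1, a mark of enhancers and promoter flanks, was the mark in which the respiratory chain genes lay farthest below the reference genes. At 0 h 13 of 80 genes had a peak (16.2%, interval 8.95 to 26.2%), against 50.9% of reference genes. At 48 h it was 9 (11.2%, interval 5.28 to 20.3%), against 46.8%. No gene of complex III was marked at either time. The 13 genes at 0 h were 8 of complex I (Ndufa3, Ndufa11, Ndufa13, Ndufb5, Ndufb7, Ndufs7, Ndufs8 and Ndufv2), 3 of ATP synthase (Atp5d, Atp5e and Atp5g2) and the complex IV genes Cox4i2 and Ndufa4l2. Even these peaks were mostly away from the promoter, since only 2 of the 11 with an annotated start had the peak centre within 500 bp of it (18.2%), against 49.3% of reference genes. At Ndufv2 the peak centre lay 24088 bp downstream of the start, near the other gene end. Counting only peaks within 2 kb of an annotated start, the shares at 0 h were 7.46% and 43.4%. Few genes of either kind had an H3K4me1 peak of at least 5-fold at 0 h, and with that limit the direction turned (1.25% against 0.432%). At 48 h the highest fold was at Atp5d (18.1), whose peak centre lay at -5246 bp from the start, outside the gene, followed by Ndufa13 (9.72) and Atp5g2 (8.40). Of the 80 genes 8 had H3K4me1 at 0 h and not at 48 h (13.3% of reference genes) and 4 at 48 h and not at 0 h (Atp5g3, Atp5j, Cox4i1 and Ndufaf6, against 9.25%). Length of H3K4me3 moved with this result, so the shares were also taken within 3 groups of reference genes of equal size by H3K4me3 length. In the shortest group (228 to 767 bp) 3 of 45 respiratory chain genes had H3K4me1 at 0 h (6.67% against 43.2%), in the middle group 3 of 17 (17.6% against 44.5%), and in the longest 7 of 18 (38.9% against 65.0%). Cytosolic ribosomal protein genes, another set active in nearly all cells, were also sparsely marked, with 10 of 71 (14.1%) at 0 h.

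**Figure D3:**
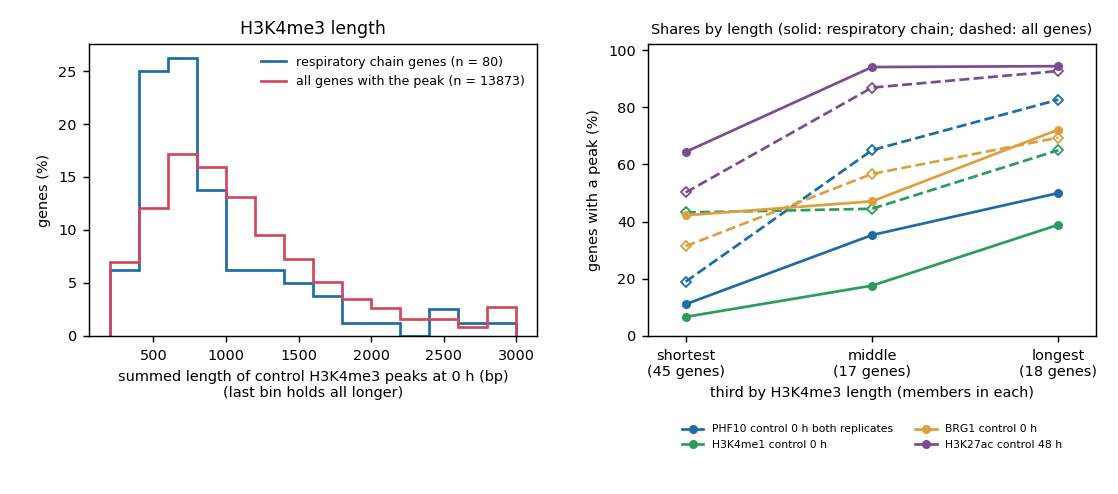
Left, the summed length of H3K4me3 peaks per gene at 0 h (bp) for the 80 respiratory chain genes and the 13873 reference genes, as percent of genes per 200 bp bin. Right, the share of genes with a peak in 4 lists within 3 groups by that length, solid for respiratory chain genes and dashed for reference genes. The solid lines for PHF10 in both 0 h replicates and for H3K4me1 lie below the dashed ones in all 3 groups, and those for H3K27ac at 48 h lie above.

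H3K27ac, found at active promoters and enhancers, marked 76 of the 80 genes at 0 h (95%, interval 87.7 to 98.6%), against 89.5% of reference genes. The isoforms Cox4i2, Cox6a2 and Ndufa4l2 were among the 4 without it. The highest H3K27ac folds at 0 h were those of Atp5j (263), Uqcrfs1 (175), Cox4i1 (152), Atp5g2 (140) and Ndufab1 (139), the mitochondrial acyl carrier protein. Across the 76 genes the H3K27ac fold followed the H3K4me3 fold with a Spearman correlation of 0.83, as it did across 12417 reference genes (0.85). These are correlations across genes of 2 libraries, which share promoter accessibility and base composition, and genes are not replicates.

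At 48 h, 62 of the 80 genes (77.5%, interval 66.8 to 86.1%) had H3K27ac, against 76.6% of reference genes. Where present the peaks were lower than at reference genes, with a median fold of 24.4 against 47.2 and a median percentile within the list of 58.2 against 67.6. The 14 genes with the peak at 0 h and not at 48 h made up 17.5% of the 80, against 13.4% of reference genes, and no gene had it at 48 h alone (0.533%). They were Ndufa2 (46.5-fold at 0 h), Cox6b1 (17.8), Atp5j2 (16.2), Uqcrb (15.9), Uqcr10 (14.5), Ndufaf1 (11.5), Ndufa5 (11), Ndufs7 (10.7), Atp5k (9.68), Ndufaf7 (9.21), Ndufv3 (8.48), Ndufa7 (7.32), Ndufa3 (6.88) and Uqcr11 (3.12). In these 14 the H3K27ac fold at 0 h had a median of 10.8, against 64.4 in the 62 that had the peak at both times. Their H3K4me3 was also weaker at 0 h (median fold 14.5 against 54.6) and shorter (median 477 against 866 bp). Reference genes with H3K27ac at 0 h and not at 48 h showed the same order, with a median H3K4me3 fold of 11.7 against 53.0. Complex III held 3 of the 14 among its 8 genes (Uqcrb, Uqcr10 and Uqcr11, small subunits). Of the genes that had H3K27ac at both times, the highest folds at 48 h were those of Atp5g3 (216), Atp5h (161), subunit d of ATP synthase, Atp5j (156), Uqcrh (155), the hinge protein of complex III, and Cox4i1 (149). The 48 h list held 15962 peaks and the 0 h list 20507, and the part of list length in the lower share at 48 h was not tested.

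**Figure D4:**
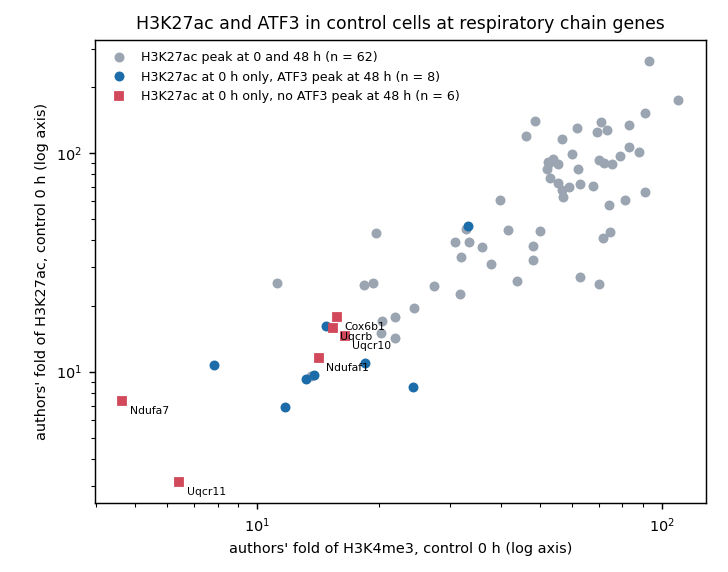
Each point is 1 of the 76 respiratory chain genes with both H3K4me3 and H3K27ac peaks at 0 h, by the authors' fold of H3K4me3 (horizontal, log axis) and of H3K27ac (vertical, log axis) in control cells. Grey points had H3K27ac also at 48 h (62 genes), blue points did not (8 genes), and red squares lacked both H3K27ac and ATF3 at 48 h (6 genes, named); the coloured points lie toward the lower left.

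H3K14ac and H3K18ac, both acetylations of active chromatin, came from lists of unequal length at the 2 times, and the part of list length in their changes was not tested. H3K14ac at 0 h came from a list of 3453 peaks and marked 5 of 80 genes (6.25%, interval 2.06 to 14%), against 21.1% of reference genes. The 5 were Atp5h (19-fold), Atp5j (10.8), Uqcrfs1 (7.52), Cox4i1 (5.82) and Atp5d (5.67), and none encoded a complex I subunit. All 5 also had PHF10 in both control replicates at 0 h, as did 99.5% of the reference genes with H3K14ac at 0 h. At 48 h, in a list of 35270 peaks, 78 genes had it (97.5%), against 97.5% of reference genes, and Ndufaf1 and Cox6a2 did not. Thus 73 genes (91.2%) had H3K14ac at 48 h and not at 0 h, against 76.4% of reference genes, and none the reverse (0%). Only genes without the peak at 0 h can gain it. Of these, 73 of 75 respiratory chain genes and 10595 of 10942 reference genes had it at 48 h. The folds at 48 h were led by Atp5g3 (71.8), Atp5j (57.4) and Atp5h (52.4), and the median percentile of the genes within the list was 85.5, against 81.3 for reference genes. H3K18ac marked 11 genes at 0 h (13.8%, interval 7.07 to 23.3%), against 16.7%, with Ndufb3 (7.45-fold), Atp5j (5.97) and Cox7a2l (4.38) highest. At 48 h it marked 26 (32.5%, interval 22.4 to 43.9%), against 49.2%. Of the 80 genes 19 had H3K18ac at 48 h and not at 0 h (34.9% of reference genes), led by Atp5g3 (61.6), Uqcrh (51.8), Ndufv2 (42.3), Atp5d (27.2) and Uqcrfs1 (22.0), and 4 at 0 h and not at 48 h (Ndufb3, Cox7a2l, Ndufa7 and Atp5l, against 2.29%). The Ndufv2 peak at 48 h lay 24666 bp downstream of the start, near the other gene end. At Atp5d the peak centre lay at -3104 bp from the nearest annotated start, and that of H3K14ac at 0 h at -3060 bp. None of the 8 assembly factor genes had H3K18ac at either time. At genes with short H3K4me3 the order was the other way at 48 h, with 10 of 45 respiratory chain genes (22.2%) against 18.7% of reference genes.

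PHF10 in untreated control cells lay at fewer respiratory chain genes than at reference genes, and the replicates differed in how many. Replicate 1 had a peak at 20 of 80 genes (25%, interval 16.0 to 35.9%), against 58.4% of reference genes. Replicate 2 had 54 (67.5%, interval 56.1 to 77.6%), against 75.8%, which lies inside that interval. All 20 genes of replicate 1 were among the 54, so both replicates shared 20 genes (25%), against 55.5%. By role they were 7 of 16 ATP synthase genes, 6 of 36 complex I subunit genes, 1 of 8 assembly factors, 2 of 8 in complex III and 4 of 12 in complex IV. Within the 3 groups by H3K4me3 length the share with PHF10 in both replicates was 11.1% against 19% in the shortest, 35.3% against 65.0% in the middle and 50.0% against 82.7% in the longest group. The 20 genes had longer H3K4me3 (median 1121 bp) than the other 60 (620 bp), and a higher H3K4me3 fold (median 71.3 against 33.0).

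The strongest PHF10 peaks at 0 h were at genes of ATP synthase in replicate 1 but not in replicate 2. Atp5h, whose promoter is printed above with its ETS core, had a PHF10 fold of 18.2 in replicate 1 and 3.8 in replicate 2. Atp5a1 had 14.8 and 4.38, Atp5d 14.3 and 3.93, and Atp5j 13.6 and 4.73. Replicate 2 ranked the genes differently, with Ndufa4 (8.89), a subunit of complex IV, Ndufab1 (6.30), Ndufaf6 (6.29), Ndufs6 (6.03) and Ndufb4 (5.84) highest. Each list has its own input and depth, so folds are not compared between the replicates.

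BRG1, the ATPase of SWI/SNF, lay at 40 of 80 genes at 0 h (50.0%, interval 38.6 to 61.4%), against 52.5% of reference genes. Of the 20 genes with PHF10 in both replicates 15 had BRG1 (75%, against 65.2% of reference genes with PHF10), while of the 40 genes with BRG1 15 had PHF10 in both replicates (37.5%, against 69.0%). Cox7c (5.07), a small subunit of complex IV, had the highest BRG1 fold and no PHF10 peak in either control replicate. It was followed by Atp5a1 (3.62), Ndufv2 (3.52), Ndufb3 (3.5) and Atp5d (3.24). The Atp5d peak was centred at -3020 bp from the nearest annotated start. When only annotated starts were counted, the BRG1 shares were 37.3% and 51.1%. By H3K4me3 length the order differed between groups. The shares were 42.2% against 31.4% in the shortest, 47.1% against 56.7% in the middle and 72.2% against 69.4% in the longest group.

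Under TGFβ1 PHF10 reached nearly all respiratory chain genes, as it did nearly all reference genes. At 24 h 71 of 80 had a peak (88.8%, interval 79.7 to 94.7%), against 93.3%. At 48 h each of the replicates had 77 (96.2%), against 92.1% and 98.7%, and 74 genes had it in both (92.5%), against 91.5%. Untreated control cells thus had PHF10 at 37.0 ± 24.0 genes (SD, n = 2). After 48 h of TGFβ1 the count was 77.0 ± 0 (SD, n = 2). The libraries of the 2 times did not overlap (20 and 54 against 77 and 77). Neither did their counts of reference genes (8100 and 10518 against 12783 and 13695). For the respiratory chain counts the exact two-sided permutation test gave p = 0.33, the smallest that 2 against 2 libraries allow. The direction turned when only peaks of at least 5-fold were counted, with 17 and 6 genes at 0 h and 4 and 0 at 48 h. After all 4 lists were cut to the length of the shortest, the counts were 20 and 49 at 0 h and 56 and 21 at 48 h, so that the libraries overlapped. For these 2 settings the counts given are of respiratory chain genes only. Nothing shows that the labels' replicates were separate cultures, so the spread may be technical.

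Of the 26 respiratory chain genes with PHF10 in neither 0 h replicate, 22 had it in both 48 h replicates (84.6%, against 75.4% of such reference genes). They made up 27.5% of the 80 genes, against 16.1% of reference genes, and no gene had PHF10 in both replicates at 0 h and in neither at 48 h (0%). Among those of highest mean fold at 48 h were Ndufaf1 (4.19), Ndufc2 (3.85), Ndufa3 (3.71), Atp5b (3.65), the catalytic β subunit of ATP synthase, Ndufs3 (3.34), a core subunit of complex I, Cox6a2 (3.18), Uqcrq (3.10), Atp5j2 (3.06) and Cox4i2 (3.05). At 24 h 17 of the 80 genes had gained a peak (21.2%, against 15.2% of reference genes). Of the 26 without PHF10 at 0 h these were 65.4%, against 71.4% of such reference genes. Within the 24 h PHF10 list the median percentile of the respiratory chain genes was 44.8, against 64.9 for reference genes, which places them lower in the list than the reference genes.

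By presence of a peak in the full lists, PHF10 in Pbrm1 KO cells followed that of control cells at these genes. At 0 h the KO list had a peak at 31 of 80 genes (38.8%, interval 28.1 to 50.3%), against 66.2% of reference genes, a count between those of the control replicates. All 20 genes with PHF10 in both control replicates had it in KO cells, so none was control-only (1.34% of reference genes), and 2 were KO-only (Cox7c, 4.15-fold, and Uqcrq, 5.01-fold, against 1.22%). The highest KO folds at 0 h were those of Atp5j (8.41), Atp5d (8.07), Cox4i1 (8.03), Ndufa4 (7.87) and Ndufv2 (7.66). At 48 h all 80 genes had a peak in the KO list of 158815 peaks (100%, interval 95.5 to 100%), against 99.5%. None was control-only (0.159%) or KO-only (0.404%). When the 48 h lists were cut to equal length, 18 genes were control-only (22.5%, the same share as in reference genes) and 1 was KO-only. In KO cells at 48 h the strongest peak was centred within 500 bp of an annotated start in 37 of 65 genes (56.9%, against 44.6% of reference genes). In the control replicates at 48 h the shares were 87.1% and 68.3%, against 67.5% and 52.9% of reference genes.

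ATF3, a stress- and TGFβ-induced bZIP factor, had few or no peaks at these genes before 48 h, as at reference genes. Its lists were short, with 20 peaks in control and 25 in KO cells at 0 h. No respiratory chain gene had a peak at 0 h in control (0.0432% of reference genes) or KO cells (0.0360%), or at 24 h in KO cells (0.0144%), and 0 of 80 allows a share of up to 4.51%. At 24 h in control cells 3 of 80 had one (3.75%, interval 0.780 to 10.6%), against 2.41%. They were Atp5md (5.13-fold), a small subunit of ATP synthase, Cox6b1 (4.72-fold), a subunit of complex IV, and Ndufa4l2 (3.87-fold). The peaks of Atp5md and Cox6b1 lay 5420 and 8810 bp downstream of the start, near the other end of the gene, and Ndufa4l2 has no entry in the promoter table. Counting only annotated starts, no respiratory chain gene had an ATF3 peak at 24 h. These 3 genes were control-only (2.41% of reference genes), and none was KO-only (0.0144%). The 24 h lists held 2004 peaks in control and 69 in KO cells, and with lists of equal length no gene was control-only.

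At 48 h the control ATF3 list of 45716 peaks reached 74 of the 80 genes (92.5%, interval 84.4 to 97.2%), against 97.5% of reference genes. The lower share was found in the shortest group by H3K4me3 length alone (86.7% against 93%). In the middle group all 17 genes had a peak (100% against 99.6%) and in the longest all 18 (100% against 100.0%). Setting all 92 genes beside all protein-coding genes also turned the direction, to 17.7 percentage points above. From 24 h 72 genes were gained (95.2% of reference genes), and Cox6b1 was the only one with a peak at 24 h and none at 48 h (0.0216%). The highest folds were those of Ndufa4 (16.2), Ndufb4 (15.0), Atp5o (12.6), the oligomycin-sensitivity protein of ATP synthase, Uqcrfs1 (12.2) and Uqcrq (11.8). All 4 genes with a CRE in the promoter, Uqcrfs1 and Ndufa11 among those printed above, had a peak, as did 56 of the 61 without (91.8%), and in reference genes the shares were 97.6% and 97.4%. The 6 genes without ATF3 were Cox6b1, Ndufa7, Ndufaf1, Uqcr10, Uqcr11 and Uqcrb. All 6 were among the 14 that had H3K27ac at 0 h and not at 48 h, whereas 57.9% of the 340 reference genes without ATF3 were in that class. Their H3K4me3 at 0 h was weak and short, with a median fold of 14.8 and a median length of 373 bp. Both features were shared by the reference genes without ATF3 (7.51-fold and 346 bp).

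In KO cells at 48 h the ATF3 list held 144513 peaks and 76 of 80 genes had one (95%, interval 87.7 to 98.6%), against 94.4%. The strongest peak was centred within 500 bp of an annotated start in 34 of 62 genes (54.8%, against 46.7% of reference genes). In control cells at 48 h it was 50 of 60 (83.3%, against 72.6%). KO-only genes were 5 (6.25%, interval 2.06 to 14%, against 1.82% of reference genes), namely Uqcrb (4.09-fold), Uqcr11 (3.41), Uqcr10 (3.25), Ndufa7 (3.11) and Cox6b1 (2.71). Such genes can come only from those without a peak in control cells. They were 5 of 6 such respiratory chain genes and 253 of 340 such reference genes. The KO peaks of Uqcr11 and Cox6b1 lay 150 and 70 bp downstream of the start. Those of Uqcr10 and Ndufa7 lay 4248 and 13929 bp downstream, near the other gene end. The Uqcrb peak lay by the gene end opposite its H3K4me3 peak. Control-only genes were 3 (against 4.97%), namely Cox5b (8.95), a subunit of complex IV, and the complex I genes Ndufs5 (4.91) and Ndufa2 (4.05). When both lists were cut to equal length 1 gene was KO-only and 32 were control-only (40.0%, against 35%).

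FOSL2 and FOSB, partners of JUN proteins at AP-1 sites, had almost no peaks at respiratory chain genes. At 48 h FOSL2 lay at 2 of 80 genes in control cells (2.50%, interval 0.304 to 8.74%, against 1.85%), Uqcr10 (6.77-fold) and Ndufa10 (5.30-fold). In KO cells it lay at 3 (3.75%, interval 0.780 to 10.6%, against 3.94%), Uqcr10 (10.1), Ndufa10 (7.49) and Ndufa6 (6.96). Ndufa6 was the only KO-only gene (2.24% of reference genes), and none was control-only (0.159%). The KO list held 7381 peaks and the control list 3444, and with lists of equal length no gene was KO-only. None of these peaks was at the gene's own start: in control cells the centre lay 3408 bp downstream of it at Uqcr10 and 33500 bp downstream at Ndufa10, and in KO cells 2610 bp downstream at Ndufa6. Cox5a, outside the 80 genes, had a FOSL2 peak in KO cells (8.14-fold) 12332 bp downstream of its start. None of the 5 promoters with an AP-1 site had a FOSL2 peak in control cells, against 6.02% of such reference genes. FOSL2 at 0 h was at no respiratory chain and no reference gene in either genotype (0%). FOSB lay at no respiratory chain gene in control cells at 0 h (0.00721% of reference genes) or 48 h (0.180%), nor in KO cells at 0 h (0.00721%) or 48 h (0.0216%).

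**Figure D5:**
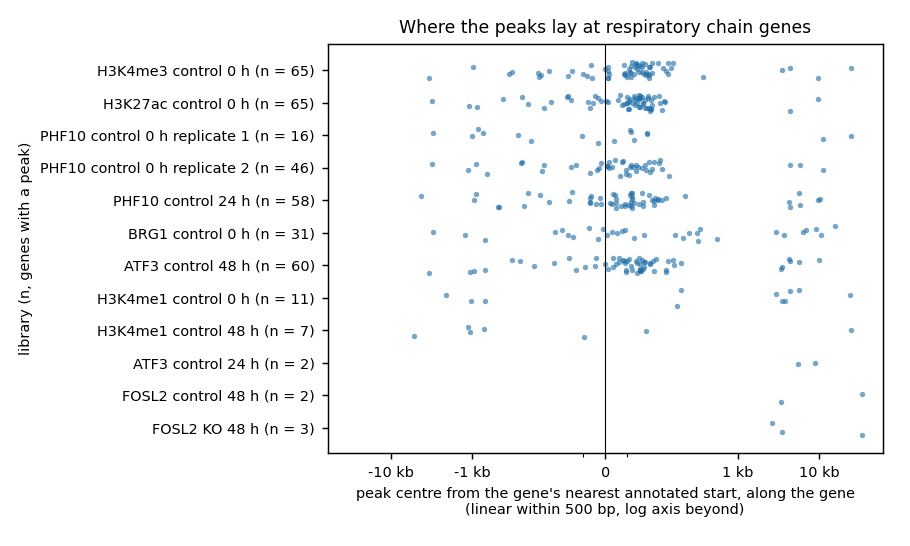
Distance of the centre of each gene's strongest peak from its nearest annotated start (horizontal axis, linear within 500 bp and log beyond, positive downstream) for respiratory chain genes in 12 peak lists. Points for H3K4me3, H3K27ac, PHF10 and ATF3 at 48 h gather just downstream of the start, and the few points for ATF3 at 24 h and FOSL2 all lie more than 2 kb downstream.

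Other genes of the pathway were described by lists of genes outside the 92. All 4 complex II genes (Sdha, Sdhb, Sdhc and Sdhd, succinate dehydrogenase) had H3K4me3 at 0 h with folds of 31.1, 41.7, 41.0 and 49.9, H3K27ac at both times, no H3K4me1 at either, and PHF10 at 0 h in replicate 2 alone at 3 of 4. Of 28 further assembly factors with H3K4me3, 42.9% had PHF10 in both 0 h replicates and 17.9% had H3K4me1 at 0 h. Of 15 glycolysis genes the shares were 40.0% and 33.3%, and of 71 cytosolic ribosomal protein genes 35.2% and 14.1%, so that lower shares than in the reference genes were not limited to the respiratory chain. Regulators of these genes had higher shares than those lists. Of the 11 with H3K4me3, 90.9% had PHF10 in both replicates at 0 h (55.5% of reference genes). H3K4me1 was at 45.5% of the regulators at 0 h, below the 50.9% of reference genes. Among the regulators Nrf1 had 74.8-fold H3K4me3, Yy1 99.1-fold and Ppargc1a, a coactivator of mitochondrial biogenesis, 55.6-fold. Their H3K4me3 was long, with a median of 1751 bp.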

How the data were processed

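The ChIP-seq peak calls deposited for NMuMG cells came as 1 list for each library, and the labels record no pooled replicates. The submitters' processing notes name MACS3 3.0.0a7 for an mm10 build, besides deepTools 3.5.1, Bowtie2 2.3.3, Partek 11.0.24.0325 and fastp 0.19.5, with neither settings nor order. The deposited pileup signal was not used. The deposited −log10 values are the p-value and the q-value of each peak relative to input, and served as a filter and to cut lists to equal length. The deposited fold is a ratio by which ChIP exceeded input at the peak, and the highest fold within 2 kb of a gene end was kept per gene and list. The PHF10 and BRG1 lists (8) reach down to a −log10 q of 1.00 and the other 24 to 1.30, so the lowest q differed between antibodies. Read totals were not used here.

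Autosomal (1 to 19), X and Y peaks were compared with the gene spans of RefSeq GRCm38.p6, which carry no strand in the table used. Starts and promoter sequences (300 bases) came from the RefSeq promoter table, which held 75 of the 92 genes. Control PHF10 counted as present where both replicates had a peak, and as absent where neither had. Shares carry exact Clopper-Pearson intervals. Genes share peaks with neighbours, so they are not independent. The PHF10 count at 48 h against 0 h was tested by an exact two-sided permutation over 4 libraries, and no other comparison had replicates in both arms. Genes named are those without H3K4me3 at a gene end, up to 5 of highest fold per list, those with a peak in 1 arm only (up to 15, or the 10 of highest fold), and those against the majority, and the text gives a part of them. The values of 1 gene are not reported here, though it stays in all counts. The members, lists and rules were chosen with earlier results of these data known. Assignment of peaks to gene ends was checked on simulated data. Alternatives were gene ends within 500 bp or 10 kb, −log10 q or fold of at least 5, annotated starts only, genes away from other genes, subunits only, all protein-coding genes, lists of equal length, leaving out each replicate of PHF10, a block for the replicate number, and, chosen after seeing the data, 3 groups by H3K4me3 length. Computation used Python 3.11.15, numpy 2.4.6, pandas 2.3.3 and scipy 1.17.1.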

Additional observations from a re-analysis of the deposited data

Results flagged for a closer look

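The number of respiratory chain genes with an ATF3 peak differed between Pbrm1 KO and control cells in opposite directions at the 2 times, with -3 genes at 24 h (KO minus control, 0 against 3) and 2 at 48 h (76 against 74). The lists held 2004 (control) and 69 (KO) peaks at 24 h, and 45716 and 144513 at 48 h. With lists of equal length no gene was control-only or KO-only at 24 h, and at 48 h 32 genes were control-only and 1 KO-only, so the opposite directions were lost. Each arm had 1 library, and the difference between the times was not tested.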

How the results depend on the processing

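Values are respiratory chain minus reference genes in percentage points, with the main value first. Of 244 alternatives over 31 results, 186 stayed near the main value (shares within its interval), 52 moved further and 6 are given as reversed. The sign turned in 43, namely these 6 (5 where the interval of the main value excluded the reference share, and the PHF10 gain) and 37 where that interval included it. Setting all 92 genes beside all protein-coding genes changed PHF10 at 0 h in both replicates from -30.5 to -13.5, at 48 h in both from 1.05 to 22.7, at 24 h from -4.57 to 18, in KO at 0 h from -27.4 to -7.22 and in KO at 48 h from 0.533 to 18.3, ATF3 at 48 h from -5.05 to 17.7 (reversed) and in KO from 0.594 to 18.2, H3K4me3 at 48 h from 0.314 to 25.8, H3K4me1 from -34.6 to -18.8 at 0 h and from -35.6 to -20.0 at 48 h, H3K27ac from 5.5 to 27.2 at 0 h and from 0.898 to 18.5 at 48 h, H3K14ac at 48 h from 0.00126 to 24.4 and H3K18ac at 48 h from -16.7 to -3.96, since that background includes genes without H3K4me3. A −log10 q of at least 5 gave -8.72 for PHF10 at 0 h, 7.90 for PHF10 KO and -10.2 for ATF3 KO at 48 h. A fold of at least 5 gave -2.66 for PHF10 at 0 h, 13.8 for H3K27ac at 0 h and, reversed, 0.818 for H3K4me1 at 0 h (1.25% against 0.432%). Gene ends within 500 bp gave 1.03 for PHF10 KO at 48 h, and within 10 kb -3.35 and -6.75 for FOSL2 in control and KO. Annotated starts gave 0.876 for PHF10 KO at 48 h, -1.84 for ATF3 at 24 h and 9.29 for H3K27ac at 0 h. Genes away from other genes gave 0.722 for PHF10 KO and 1.98 for H3K4me3 at 48 h, -49.4 for H3K4me1 at 0 h, and 13.1 and 15.0 for H3K27ac at 0 and 48 h.

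Within the shortest group by H3K4me3 length the values were -7.93 and 10.1 for PHF10 in both replicates at 0 and 48 h, -4.96 and 1.47 for PHF10 KO at 0 and 48 h, 10.8 for BRG1, 2.43 for H3K4me3 at 48 h, -25.1 for H3K4me1 at 48 h, 17.2 and 14.2 for H3K27ac, -1.73 and 2.39 for H3K14ac at 0 and 48 h, and, reversed, 3.55 for H3K18ac at 48 h. In the middle group ATF3 at 48 h reversed to 0.368 and FOSL2 came to -2.05 in control and -4.15 in KO. In the longest group ATF3 reversed to 0.0216, FOSL2 came to -1.93 and -3.92, and H3K27ac at 0 h to -3.11. The cause of these shifts was not tested.

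For PHF10 at 0 h, leaving out replicate 2 gave -33.4 and leaving out replicate 1 gave -8.32. At 48 h the value was 4.11 without replicate 2 and -2.47 without replicate 1. The gain in PHF10 genes from 0 to 48 h was 40.0, from 23.0 to 57.0 with 1 library left out, and reversed to -9.50 with a fold of at least 5. With the replicate number as a block the gain was 40.0 (exact paired sign-flip test, p = 0.50, the smallest for 2 pairs). The numbers do not show a pairing, with a correlation of 0.11 between the replicate differences at 0 and 48 h across 7536 genes. With lists of equal length, control-only genes went from 0 to 18 and KO-only from 0 to 1 for PHF10 at 48 h, control-only from 3 to 0 for ATF3 at 24 h, control-only from 3 to 32 and KO-only from 5 to 1 for ATF3 at 48 h, and KO-only from 1 to 0 for FOSL2. Depth is unknown, so absence of a peak is not absence of binding.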
